A study of Mus musculus with 249 samples.

Results

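The centromere-proximal windows of 14 mouse autosomes (chromosomes 1 to 11, 13, 14 and 17) were the 40 kb windows that start from 3 Mb to below 10 Mb in assembly mm9, where the sequence of each chromosome begins. They numbered 2450, or 175 per chromosome, of the 68162 windows listed for the whole genome. They were compared with the 2450 windows from 40 to 47 Mb of the same chromosomes. The data came from 249 multiplex-GAM libraries of 46C, a line of 129/Ola mouse embryonic stem cells with a GFP gene knocked into Sox1. In GAM (genome architecture mapping), thin slices of nuclei (nuclear profiles) are cut by laser from cryosections, and the DNA in each tube is amplified and sequenced. A window was scored as positive or not in each library, so 2 windows that are close in the nucleus are positive together more often than their separate rates predict.

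Every library used the same cells, grown with serum and LIF and then moved to serum-free medium before harvest, and was titled as holding 4 nuclear profiles per tube. The paper counts 3 nuclear profiles per library on average, and reports that some cellular profiles miss the nucleus. The libraries fell into 11 experiments on the protocol, with 20 groups. The full collection held 54 libraries. The reagent volume experiment used amplification protocols A (10 libraries), B (11) and C (10), and the proteinase K experiment used volumes of 1 µl (5) and 2 µl (6). One experiment compared samples frozen after the incubation (10) with unfrozen ones (11), and another early (12) with late freezing (11). The cycle experiment used 25 (3 libraries), 23 (5) or 20 (4) PCR cycles, the kit experiment compared a small kit (12) with a large kit (11), and the cresyl violet experiment compared stained (16) with unstained (10) slices. Unstained libraries of the propidium iodide (20), eosin (18) and SYBR Gold (10) experiments completed the set. The labels name no separate cultures, so p-values measure only the spread between these libraries. Coverage, the percent of autosomal windows positive in a library, ran from 3.23 to 48.2 with a median of 18.2, and 5 libraries lay below 5. No 2 libraries were identical. Reads per window are not part of the table, which leaves the depth unknown.

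Mouse chromosomes are telocentric: the centromere lies at one end, before the first assembled base. Between the centromere and the genes lies pericentromeric heterochromatin, built of long tandem arrays of the major satellite repeat. In interphase nuclei the pericentromeres of several chromosomes gather in shared bodies, the chromocentres, which are bright foci with DNA dyes. The windows described here are the assembled sequence nearest to those arrays.

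The member detected most often consisted largely of a tandem repeat. The first window of chromosome 9 (chr9:3000001-3040000, mm9), which was positive in more libraries than any other member, held tandem copies with a period of 234 bases over 79.2% of its length, counting stretches in which neighbouring copies were at least 85% identical. The major satellite has units of that length, but the sequence was not compared with a satellite reference, and only the members positive in over 100 libraries were searched for tandem repeats. The 2 neighbouring units that match best are shown because this repeat is the sequence of the window detected most often. They lie at chr9:3027538-3027771 and chr9:3027772-3028005 on the plus strand. Capitals mark the 5 positions at which the units differ, and the other 229 of 234 are identical. Both are rich in A and T, with a GC content of 35% and 33.3%.
Unit 1: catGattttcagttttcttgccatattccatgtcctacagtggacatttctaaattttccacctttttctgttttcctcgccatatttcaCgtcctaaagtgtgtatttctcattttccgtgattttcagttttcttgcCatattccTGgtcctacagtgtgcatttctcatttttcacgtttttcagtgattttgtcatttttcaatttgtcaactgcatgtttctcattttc
Unit 2: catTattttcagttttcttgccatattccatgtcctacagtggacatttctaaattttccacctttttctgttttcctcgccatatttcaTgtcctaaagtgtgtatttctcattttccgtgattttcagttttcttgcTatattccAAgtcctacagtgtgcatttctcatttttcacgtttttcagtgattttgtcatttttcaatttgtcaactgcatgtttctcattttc

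In the other members positive in over 100 libraries, periods from 5 to 400 bases were searched. Coverage was taken for each window at a single period. Tandem copies at that period covered between 0.185% and 5.55% of the window. Coverage by all periods together was not computed. The highest of these values was that of the window at chr17:3040001-3080000, with a period of 27 bases.

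The members were detected about as often as the rest of the genome, with a few windows far outside the common range. A member was positive in a median of 49 libraries, with quartiles of 43 and 55, and the median over all autosomal windows was also 49. Of the 2450 members, 83 (3.39%) were never positive, beside 3.52% of all autosomal windows, and 170 (6.94%) were positive in under 25 libraries, beside 4.51% of all autosomal windows. The never-positive members lay on chromosome 14 (50 windows), chromosome 7 (27) and chromosome 17 (6), and these chromosomes also held 163 of the 170 members under 25 libraries. At the limit of 25 libraries that later sets the windows used for linkage, 3 members were at 24 and 4 at 25.

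**Figure D1:**
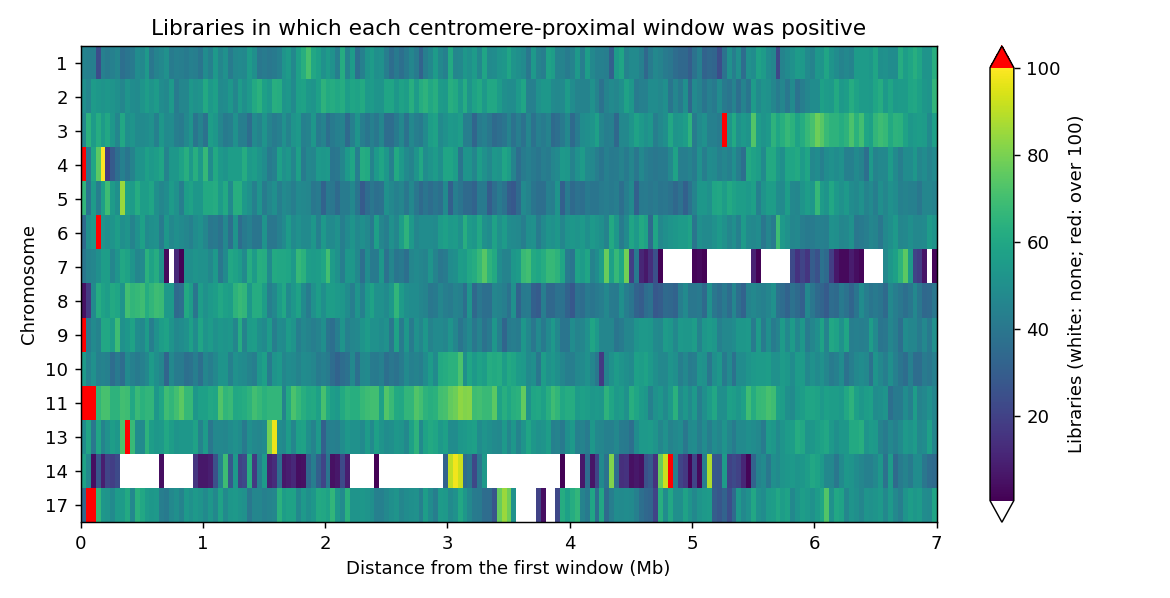
Number of libraries (colour) in which each 40 kb window was positive, for the 14 chromosomes (rows) by distance in Mb from the first window. White windows were never positive, dark windows seldom, and red windows were positive in over 100 of 249 libraries. White and dark runs lie on chromosomes 7, 14 and 17, and 9 of the 11 red windows lie in the first Mb.

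The seldom detected members had little unique sequence. Uniqueness was taken as the percent of 31-base words, sampled every 100 bases, that occur once in the genome. Among the 208 members with under 10% unique words, the median was 5 libraries, 80 were never positive and 157 were under 25 libraries. Among the 1288 members with at least 80% unique words the median was 51 libraries, none was never positive and 1 was under 25 libraries. The comparison windows gave the same order, with a median of 13 libraries for 68 windows under 10% and 50 for 1641 windows at 80% or above. Chromosome 14 had the least unique members, at 21% on average, followed by chromosome 7 at 42.1% and chromosome 17 at 70.7%. Chromosome 2 had the most, at 87.5%. The part of sequence uniqueness in the calls was not tested.

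At the other end, 11 members (0.449%) were positive in over 100 libraries, beside 0.121% of all autosomal windows and 0 of the 2450 comparison windows. The share was 0.457% (4 of 875) in the windows from 3 to 10 Mb of chromosomes 12, 15, 16, 18 and 19, close to that of the members. The limit of 100 libraries was set with these values known. The window of chromosome 9 shown above was positive in 247 libraries (99.2%) and had 8.50% unique words. It overlaps 12 predicted protein-coding genes, among them Gm10722, Gm10721 and Gm11168. The 3 first windows of chromosome 11 followed. The window at chr11:3040001-3080000 was positive in 242 libraries, chr11:3080001-3120000 in 235 and chr11:3000001-3040000 in 218. All 3 overlap Sfi1, which encodes a centrin-binding spindle protein, and chr11:3080001-3120000 also overlaps Drg1 and Eif4enif1. Unlike the window of chromosome 9, the first 2 of these held mostly unique words (85.5% and 89.3%). The next was chr3:8240001-8280000, in 168 libraries, which overlaps no annotated gene. The other 6 lay between 105 and 119 libraries. They were chr14:7800001-7840000 (119), chr13:3360001-3400000 (118), chr17:3040001-3080000 (112), chr17:3080001-3120000 (110), chr4:3000001-3040000 (106) and chr6:3120001-3160000 (105). Of these, chr17:3080001-3120000 overlaps Scaf8, which encodes a factor that binds RNA polymerase II, and the pseudogene Pisd-ps2. A second Pisd pseudogene, Pisd-ps1, lies in the first window of chromosome 11.

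The 5 members positive in fewest libraries among those with at least 25 lay on chromosomes 7 and 14. They were chr7:7680001-7720000, chr7:9000001-9040000, chr14:4080001-4120000 and chr14:7600001-7640000, each in 25 libraries, and chr14:3120001-3160000 in 27, a value that 4 members shared. Each had under 10% unique words, and the annotated genes in them were predicted genes such as Gm3099, Gm3636 and Gm10340 or pseudogenes of vomeronasal receptors such as Vmn2r-ps41.

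Of the members, 1264 (51.6%) overlapped a protein-coding gene of GENCODE vM1, close to the 48.9% of the comparison windows. Members with such a gene were positive in a median of 51 libraries and the 1186 without in a median of 47, with a mean GC content of 42.3% and 39.9%. Across the 2269 members positive in 25 to 100 libraries, the number of libraries correlated with GC content at a Pearson's r of 0.38 and a Spearman's rho of 0.37, against 0.42 and 0.46 across 2228 comparison windows. Neighbouring windows share libraries and base composition, so these are descriptions.

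Genes with roles in development were detected at rates near the autosomal median. A list of 28 regulators of development and signalling, all inside these regions, had a median of 53.1 libraries per gene, averaged over the 40 kb windows that each gene overlaps. Of the 28, 21 were above 50, the median of all autosomal windows positive in at least 25 libraries. Under the same limit, single members that overlap any protein-coding gene had a median of 52. The highest genes of the list were Osm with 73 libraries and Lif with 69.5, neighbouring genes for cytokines of the same family on chromosome 11, of which LIF maintains the self-renewal of mouse embryonic stem cells. The median over all members of chromosome 11 was 61. Cdk6, a cyclin-dependent kinase of the G1 phase, had 61.8 libraries, Klf6, a zinc finger factor, 61, and Gata3, a factor of T cell and trophoblast development, 59.5. Sox17, an endoderm factor, had 42, Esr1, the oestrogen receptor alpha gene, 42.6, and Oprk1, the kappa opioid receptor gene, 41, the lowest of the list. Dlx5 and Dlx6, a pair of homeobox genes on chromosome 6, share 1 window and had 52.

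The imprinted genes fell in 2 clusters. On chromosome 7, Zim1 had 69 libraries, Peg3 65.5 and Usp29 65, all above the autosomal median. On chromosome 6, Peg10, a gene derived from a retrotransposon, had 55, and its neighbours Sgce (49), Ppp1r9a (49.4), Calcr (48.7), Pon1 (47), Pon2 (49.5), Pon3 (50) and Asb4 (44) lay at or below that median. In all, 4 of the 11 imprinted genes were above it, with a median of 49.5. GAM does not separate the parental alleles here.

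Over all listed windows, detection of the members was higher than that of the comparison windows, and the difference no longer passed the test without chromosome 7. In each library, the percent of members positive was set against the percent of the 40 to 47 Mb windows. Members were positive at 19.1% ± 9.63 (SD, n = 249) and comparison windows at 18% ± 8.95. Members ranged from 0.98% to 52.3% with a median of 17.9% and comparison windows from 2.65% to 53.9% with a median of 16.4%, so both sets overlapped over nearly their whole range. The difference was 1.1 percentage points (SE 0.391) and was above 0 in 139 of 249 libraries (sign-flip permutation test, two-sided, p = 0.00505). It was 0.313 points (SE 0.412, p = 0.45) over windows positive at least once. Without chromosome 7, a choice made after the values were seen, it was 0.193 points (p = 0.631). On chromosome 7, 159 of the 175 comparison windows consist mostly of unknown bases in the assembly, and the same 159 were never positive. Against windows at 20 to 27 Mb the difference was -0.10 points (p = 0.746) and against those at 60 to 67 Mb it was -0.30 points (p = 0.486).

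By chromosome, detection was higher in the members on 8 of 14 chromosomes, and the difference passed the test on 3 (sign-flip permutation test, Benjamini-Hochberg over 14). On chromosome 11 members were positive at 25.5% and comparison windows at 20.0%, a difference of 5.55 points (SE 1.32, higher in 154 of 249 libraries, adjusted p = 0.000187). All 175 windows of both sets there were positive in at least 25 libraries, so that filter removed none. Mean GC content there was 44.5% in members and 41% in comparison windows, and 3 of the members were positive in 218 to 242 libraries. The part of either in the difference was not tested. On chromosome 7 the difference was 12.95 points (adjusted p = 7e-05), with the gap named above in the comparison windows, and over windows positive at least once it was -6.46 points (SE 1.88, adjusted p = 0.00462), where only 16 comparison windows were left. On chromosome 14 members were at 10.1% and comparison windows at 14.6%, a difference of -4.50 points (SE 0.929, adjusted p = 7e-05). Over windows positive in at least 25 libraries, that difference was 3.34 points (SE 1.26, adjusted p = 0.0609). That filter acts on the counts that are compared, and it left 78 members of chromosome 14 beside 144 comparison windows. The change of sign therefore cannot be read as higher detection of the members. The other 11 chromosomes had differences between -2.89 points (chromosome 9, SE 1.42) and 2.82 points (chromosome 2, SE 1.37), none of which passed the adjusted test.

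**Figure D2:**
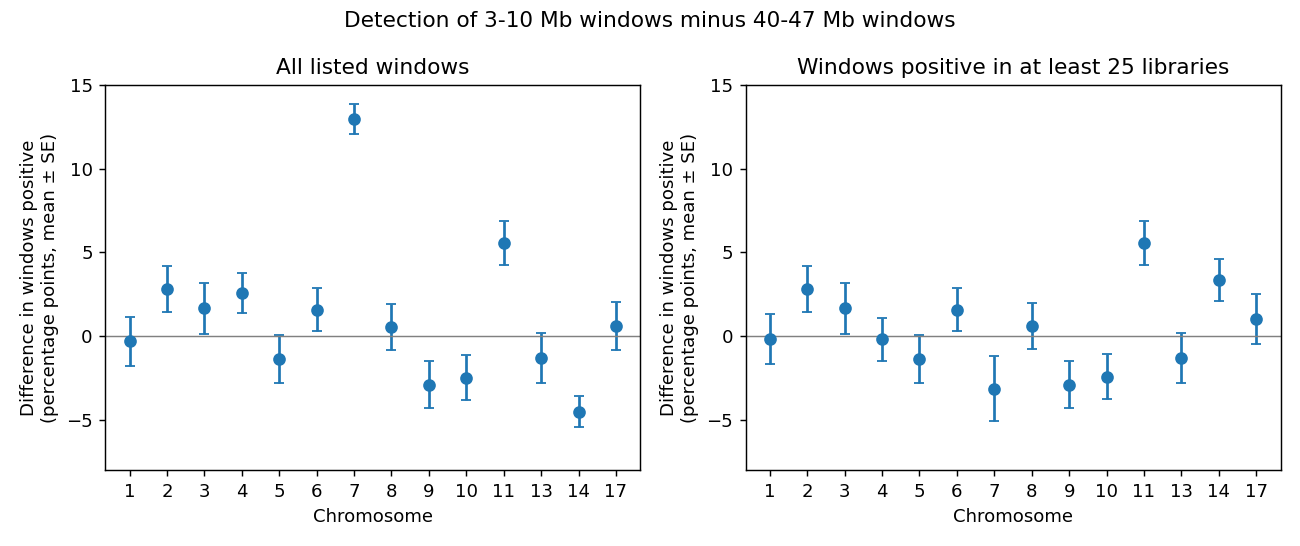
Percent of 3-10 Mb windows positive minus percent of 40-47 Mb windows positive, in percentage points, for each chromosome (points, mean over 249 libraries; bars, SE), over all listed windows on the left and over windows positive in at least 25 libraries on the right. On the left chromosome 7 stands at 12.95 and chromosome 14 at -4.50 points, and on the right only chromosome 11, at 5.55 points, passed the adjusted test. The filter on the right acts on the counts that are compared, and it removed no window of chromosome 11.

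Within the members, detection was highest in the first Mb. Over windows positive at least once, 21.5% of the windows from 3 to 4 Mb were positive, 20.1% of those from 4 to 5 Mb and between 18.3% and 20.0% of those in each later Mb. The first Mb exceeded the seventh by 1.92 points (SE 0.502, higher in 155 of 249 libraries, sign-flip permutation test, p = 0.00014). The first Mb held 9 of the 11 members positive in over 100 libraries. Without windows positive in over 100 libraries, an alternative chosen after the values were seen, the difference was 0.67 points (SE 0.506, p = 0.187).

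Within a chromosome, pairs of members were more strongly linked than pairs of comparison windows at the same distance. Linkage was measured as D′, the normalized linkage disequilibrium, over windows positive in at least 25 libraries (2280 members, 2228 comparison windows). It is the frequency at which both windows are positive minus the product of their own frequencies, divided by the largest size this difference can take. Averaged over distances up to 4 Mb, D′ was 0.298 ± 0.00787 (jackknife SE over 249 libraries) for members and 0.269 ± 0.00704 for the comparison windows. The difference of 0.0287 (SE 0.00767) was above 0 in the pseudovalues of 149 of 249 libraries (sign-flip permutation test on leave-one-library-out pseudovalues, p = 0.00026).

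All 4 bands of distance passed the test, with the smallest difference at the shortest distances. Up to 400 kb, D′ was 0.494 in members and 0.48 in comparison windows, a difference of 0.014 (SE 0.00585, adjusted p = 0.0148 over 4 bands). It was 0.0218 (adjusted p = 0.00592) from there to 1 Mb, 0.0233 (adjusted p = 0.00679) up to 2 Mb and 0.0365 (SE 0.00902, adjusted p = 0.00088) from there to 4 Mb. Whether the bands differ from each other was not tested. D′ fell with distance in both sets.

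**Figure D3:**
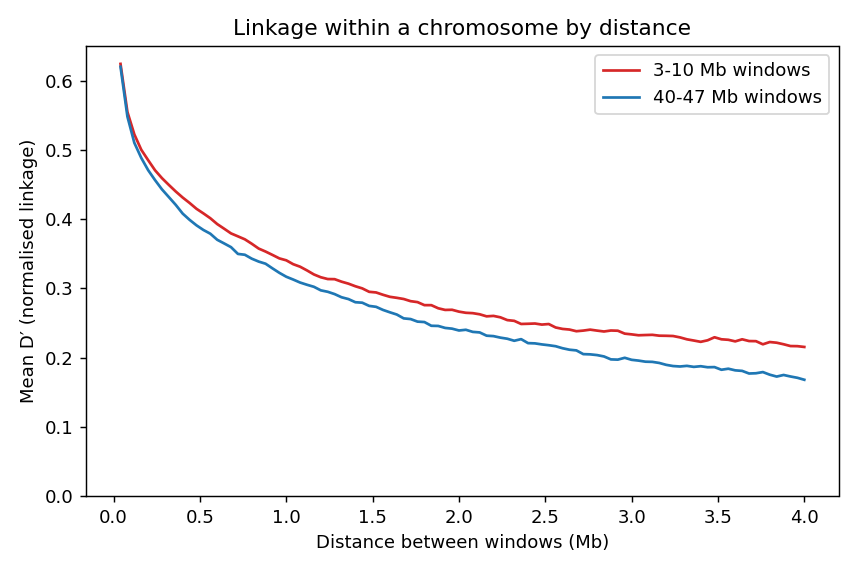
Mean D′ (vertical axis) of window pairs on the same chromosome by the distance between them in Mb (horizontal axis), for 3-10 Mb windows (red) and 40-47 Mb windows (blue) of the 14 chromosomes. Up to 400 kb the mean values were 0.494 and 0.48, and from 2 to 4 Mb they were 0.236 and 0.20.

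Mean cis D′ was higher in the members on 13 of 14 chromosomes. The highest member values were 0.351 ± 0.0268 on chromosome 14 and 0.334 ± 0.0241 on chromosome 9, and the lowest was 0.25 ± 0.0193 on chromosome 6. On chromosome 14 only 78 members were used, and its members had the least unique sequence. Among these 13 chromosomes, chromosome 11 had the widest gap, with 0.328 ± 0.0205 in members against 0.226 ± 0.0192. The SE of the gap ran from 0.0246 on chromosome 11 to 0.0328 on chromosome 1, and single chromosomes were not tested. On chromosome 7, members had 0.269 and the 16 comparison windows left there, at most 600 kb apart, had 0.46. Leaving out each chromosome in turn kept the difference between 0.0223 (without chromosome 11, p = 0.0107) and 0.0309 (without chromosome 13, p = 0.00014). The mean of the pseudovalue difference was above 0 in all 11 experiments, from 0.0039 in the SYBR Gold experiment (n = 10) to 0.0511 in the kit experiment (n = 23). Against windows at 60 to 67 Mb the difference was 0.0145 (SE 0.00846, p = 0.118) and did not pass the test, and against windows at 20 to 27 Mb it was 0.0192 (SE 0.00719, p = 0.0119).

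By the rule for naming pairs, the 4 pairs of members with the highest z-score of D′ within a chromosome and distance all joined a window of chromosome 11 positive in 235 or 242 libraries to windows near 6.5 to 7 Mb, such as those of Ramp3, a receptor activity modifying protein, and Adcy1, an adenylate cyclase. Their D′ was 1, since every one of the 62 to 69 libraries positive for the second window was positive for the first. All of the 100 highest pairs included a window positive in over 100 libraries. With such windows left out, a choice made after the values were seen, the 4 highest pairs lay on chromosome 14, at distances of 2760 to 3520 kb. The highest joined chr14:5000001-5040000 and chr14:7760001-7800000, positive in 39 and 92 libraries and together in 34, with a D′ of 0.797 ± 0.0849 (jackknife SE), where the mean at this distance was 0.23. The windows of these 4 pairs had between 2.75% and 19.5% unique words and overlap predicted genes such as Gm3298, Gm10406, Gm8237 and Gm3629. The part of shared repeats in these values was not tested.

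Linkage between chromosomes was tested because pericentromeres gather in chromocentres. Mean D′ between members of different chromosomes, over 91 chromosome pairs weighted equally, was 0.0346 ± 0.0116. Between comparison windows of different chromosomes it was 0.0230 ± 0.0111, and between members and comparison windows of another chromosome 0.0242 ± 0.0101. The difference between the first 2 was 0.0116 (SE 0.0104), above 0 in the pseudovalues of 135 of 249 libraries, and did not pass the test (sign-flip permutation test, adjusted p = 0.406 over 2). The difference between the first and the last was 0.0104 (SE 0.00609, above 0 in 111 libraries, adjusted p = 0.376). With windows at 20 to 27 Mb as the comparison both were several times smaller, at 0.00243 and 0.00131 (adjusted p = 0.608 for each), and with those at 60 to 67 Mb they were 0.0176 (adjusted p = 0.184) and 0.0143 (adjusted p = 0.157). D′ between chromosomes includes the effect that libraries with higher coverage hold more of every region.

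With library coverage taken into account, the members stood above the comparison windows, a call that was lost without the kit experiment. In a second measure, each library's expected rate, the rate of the window times the coverage of the library over the mean coverage, was subtracted before windows were correlated. The mean correlation between members of different chromosomes was then 0.00473 ± 0.00246, that between comparison windows -0.00157 ± 0.00158 and that between both kinds -0.00103 ± 0.00133. The first difference was 0.0063 (SE 0.00285, above 0 in 141 of 249 libraries, adjusted p = 0.0259) and the second 0.00575 (SE 0.00225, above 0 in 109 libraries, adjusted p = 0.0153). Without the kit experiment (23 libraries) the first was 0.00383 (SE 0.00253, adjusted p = 0.132) and the second 0.00357 (adjusted p = 0.105), so neither passed. Without the full collection (54 libraries) the first was 0.00599 (SE 0.00343, adjusted p = 0.0806), a similar size with a wider error, and the second was 0.00599 (adjusted p = 0.0442). The other 9 experiments were not left out in turn. The first difference was above 0 on average in 8 of 11 experiments, between -0.0185 in the cresyl violet experiment (n = 26) and 0.0301 in the kit experiment. Leaving out chromosome 6 gave 0.00471 (adjusted p = 0.123) and leaving out chromosome 5 gave 0.00534 (adjusted p = 0.091), and the first difference also fell short without chromosome 4 (adjusted p = 0.0634), 14 (0.0779) or 17 (0.0602).

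Along the chromosomes, the members' block had the highest mean linkage between chromosomes of 13 blocks of 7 Mb from 3 to 94 Mb over all 249 libraries, a rank that the coverage-adjusted correlation lost without the kit experiment. Mean D′ between blocks at the same position of different chromosomes was 0.0346 for the members, 0.0317 ± 0.00961 from 17 to 24 Mb, and 0.00855 ± 0.0111 from 87 to 94 Mb, the lowest. None of the 12 differences passed the pseudovalue sign-flip test with Benjamini-Hochberg adjustment, and 0 had an unadjusted p under 0.05. With the coverage-adjusted correlation, 10 of 12 passed, and without the kit experiment, an alternative added after the values were seen, 3 of 12 passed. The members (0.00232) then stood below the block from 17 to 24 Mb (0.00275, adjusted p = 0.851) and above the other 11. The members' 0.00473 differed from all blocks beyond 24 Mb, which ran from -0.00631 to -0.00107, with adjusted p-values up to 0.0168. It was not separated from the 10 to 17 Mb block (0.00194 ± 0.0019, adjusted p = 0.228) or the 17 to 24 Mb block (0.00312 ± 0.002, adjusted p = 0.517).

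**Figure D4:**
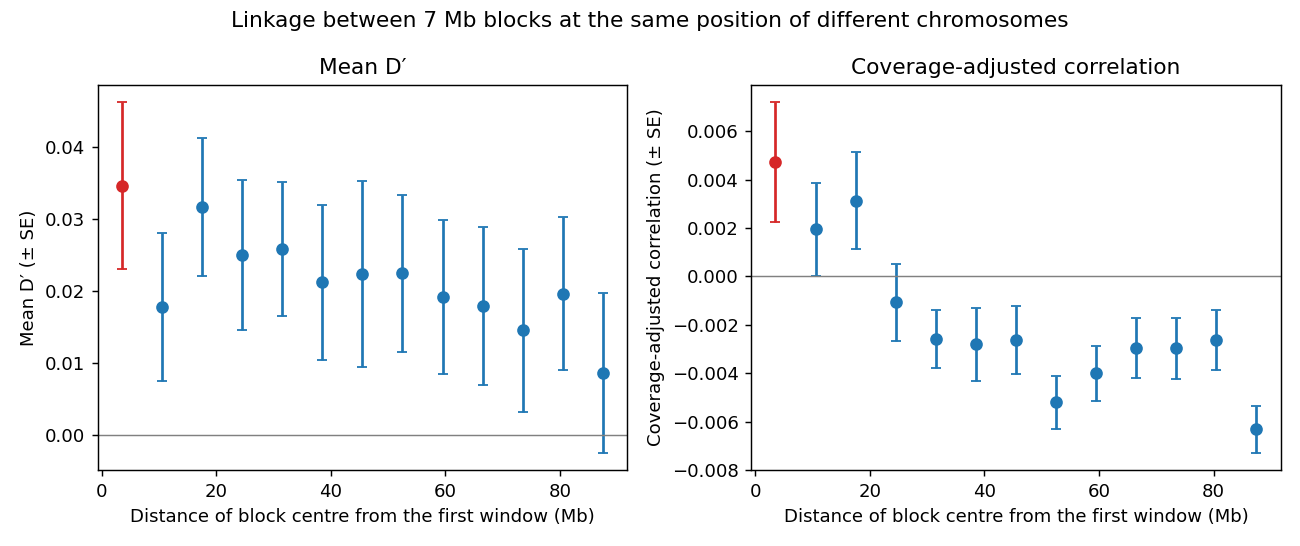
Mean D′ (left) and coverage-adjusted correlation (right) between 7 Mb blocks at the same position of different chromosomes, by the distance in Mb of the block's centre from the first window (points; bars, jackknife SE on the left and SE over libraries on the right). Over all 249 libraries, as plotted, the 3-10 Mb block (red) has the highest value on both scales, 0.0346 and 0.00473.

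Within the members, no trend from the first to the seventh Mb was detectable. Windows from 3 to 4 Mb had a mean D′ of 0.0433 ± 0.0124 with the members of other chromosomes and those from 9 to 10 Mb 0.0375 ± 0.0117, a difference of 0.00578 (SE 0.00715, sign-flip permutation test, p = 0.512).

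Among the 91 chromosome pairs, mean D′ between members ran from -0.0561 to 0.105 with a median of 0.0367, and it exceeded that between comparison windows in 60 pairs. It was at least 0.1 in 1 pair (1.1%), beside 0.364% of all 15379 pairs of 7 Mb blocks on different chromosomes, a limit set with values known. That pair was chromosomes 2 and 9, at 0.105 ± 0.0287, against 0.0197 between their comparison windows. Both regions were captured, with at least 25% of their usable windows positive, in 44 libraries, which are among the 86 in which the first was captured and the 85 in which the second was. The product of these rates gives 29.4, but it takes no account of library coverage, and 90 of the 91 pairs were captured together more often than it gives. The next pairs were 10 and 14 (0.0946 ± 0.0363), 2 and 14 (0.0928 ± 0.0333), 10 and 11 (0.0914 ± 0.0282) and 9 and 11 (0.0868 ± 0.0336). The lowest were 10 and 13 (-0.0561 ± 0.0464), 6 and 13 (-0.0509 ± 0.0373) and 4 and 13 (-0.0375 ± 0.0409), each within 2 SE of 0. Averaged over 13 partners, chromosome 11 had 0.0483, chromosome 2 had 0.0475 and chromosome 17 had 0.0457, and chromosome 13 had the lowest mean, 0.0188. With the coverage-adjusted correlation the order was another one, with chromosome 6 highest at a mean of 0.0112, chromosome 11 at 0.000537, and the pair 5 and 6 (0.0444) above 2 and 9 (0.0362). These errors are wide beside the differences, so the order of neighbouring pairs is not resolved.

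**Figure D5:**
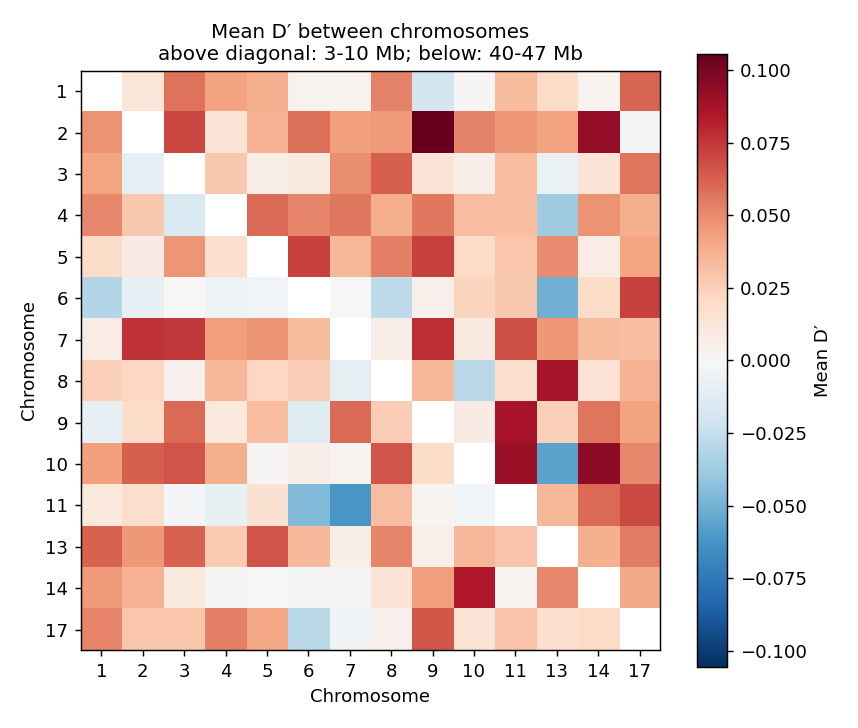
Mean D′ (colour) between each pair of the 14 chromosomes, for 3-10 Mb windows above the diagonal and 40-47 Mb windows below it. The strongest cell above the diagonal is chromosomes 2 and 9 at 0.105, and the weakest is 10 and 13 at -0.0561.

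The number of chromosomes whose proximal region was captured in a library gave a measure of joint capture. With a region counted as captured when at least 25% of its usable windows were positive, a library captured from 0 to 14 proximal regions, 4.96 on average, and 4.76 of the 14 comparison regions. All 14 proximal regions were captured in 1 library and none in 16, and 7 or more in 69 libraries, beside 1, 13 and 71 for the comparison regions. The variance over libraries was 8.82 ± 0.785 for proximal and 8.26 ± 0.656 for comparison regions. The difference of 0.565 (SE 0.703) did not pass the pseudovalue sign-flip permutation test (p = 0.426).

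The members were also set against 2 other kinds of chromosome end. The proximal 7 Mb of the other 5 autosomes, chromosomes 12, 15, 16, 18 and 19, which are commonly listed as carriers of ribosomal gene arrays (nucleolus organizers), had a mean D′ of 0.0278 ± 0.0136 among themselves and 0.0303 ± 0.00995 with the members. The last 7 Mb of the 14 chromosomes, next to the distal telomeres, had 0.0278 ± 0.00956. The members' 0.0346 exceeded these by 0.00682, 0.00428 and 0.0068, and none of the 3 differences passed the test (sign-flip permutation test, adjusted p = 0.555 for each, 0 of 3 with an unadjusted p under 0.05). The coverage-adjusted correlation gave the same calls (adjusted p = 0.315 for each).

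On their own chromosomes, the members were linked to nearby blocks at 7 to 35 Mb away at mean D′ of 0.192 to 0.121, where other pairs of blocks at the same spacing had 0.172 to 0.115. At 42 to 56 Mb away the members had 0.104 to 0.0869 and the others 0.109 to 0.0915. The order then turned again, with 0.095 for the members and 0.082 for the others at 63 Mb, 0.0822 and 0.0726 at 70 Mb, and 0.0673 and 0.073 at 77 Mb, so the members were higher at 7 of 11 spacings. These values are descriptions, over 14 pairs per spacing for the members and 14 to 154 for the others.

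No difference between experiments passed the test for the detection difference or for D′ between chromosomes. Over all listed windows, the difference in detection was above 0 on average in all 11 experiments, from 0.219 points in the proteinase K experiment (SD 6.43, n = 11) to 2.59 in the eosin experiment (SD 3.89, n = 18). Over windows positive in at least 25 libraries it was below 0 in the proteinase K (-0.204 points) and propidium iodide (-0.192) experiments. A permutation test of the F statistic over the 11 experiments gave 0.253 (adjusted p = 0.99), and for the pseudovalues of linkage between chromosomes 0.959 (adjusted p = 0.965). Linkage within chromosomes and the coverage-adjusted correlation were not tested this way. Experiment and protocol cannot be told apart across experiments.

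Protocol arms were compared within 7 experiments, in 11 contrasts of the per-library detection difference. None passed the adjusted test (permutation tests, 0 of 11), and 1 had an unadjusted p under 0.05. The 3 contrasts between PCR cycles have arms too small to pass, since the smallest adjusted p they allow, with the other p-values as observed, is 0.0873, 0.135 or 0.157. In the contrast with the low unadjusted p, large-kit libraries had a mean difference of -2.74 points (SD 4.25, n = 11) and small-kit libraries 4.26 points (SD 8.65, n = 12), which differed by -7.00 points (permutation test, p = 0.0245, adjusted p = 0.269). Libraries of 20 PCR cycles had -2.03 points (SD 7.58, n = 4) and those of 23 cycles 5.57 points (SD 4.94, n = 5), a contrast of -7.60 points (exact permutation test, adjusted p = 0.495). The other 9 contrasts lay between -4.22 and 3.38 points, with adjusted p-values from 0.495 to 0.85.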

How the data were processed

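Per the file headers, the authors' table lists 40 kb windows by library, each with 1 where the window was positive and 0 elsewhere, so the deposited values are calls of another kind than counts. Per the methods, the authors aligned reads to mm9 with Bowtie2 (version 2.1 in the submitters' processing notes), removed duplicates with Samtools and called windows with GAMtools at a fixed read threshold. By its name, the authors' table holds libraries that passed quality control. All 249 columns were matched to labels, and 0 were left over. Chromosome ends in the table equalled those of assembly NCBIM37, from which GC content, unique 31-base words and sequences were read, and genes came from GENCODE vM1.

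Linkage (D′) used windows positive in at least 25 libraries, with leave-one-library-out pseudovalues, jackknife SE and two-sided sign-flip permutation tests over libraries (100000 resamples, smallest p 1e-05). Pseudovalue means can differ from the plain D′ printed, because D′ is not linear in the libraries. Adjustment followed Benjamini and Hochberg, with a threshold of 0.05. The statistics were also run on a few simulated tables, in which linkage within a region did not fall with distance. The rate of false calls was not measured. Python 3.11.15 was used with numpy 2.4.6 and scipy 1.17.1. The members, lists and tests were chosen with earlier results of these data known. Named were the 5 members positive in most and the 5 in fewest libraries among those with at least 25, each chromosome, the 5 highest and 3 lowest chromosome pairs, the 4 cis pairs (200 kb to 4 Mb apart) of highest z-score, the genes in them and both gene lists.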

Additional observations from a re-analysis of the deposited data

How the results depend on the processing

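The detection difference of 1.1 points fell short of the threshold over windows positive at least once (0.313), in 25 or more libraries (0.646) or in 25 to 100 (0.43), over windows positive at least once with matched GC content (0.39), and, in alternatives chosen after seeing the data, without chromosome 7 (0.193), without chromosomes 7 and 14 (0.585) or over windows at least 50% unique (0.551). It changed sign against windows at 60 to 67 Mb (-0.296) and 20 to 27 Mb (-0.10). It held, between 1.14 and 1.41, without the full collection, without libraries under 5% coverage, without chromosome 9, and as a median or a mean of experiment means. The count of 3 chromosomes that differed was 2 over windows positive at least once (chromosomes 7, then lower in the members, and 11) and 1 over windows positive in at least 25 libraries. Both filters act on the same counts that are compared. The gradient within the members was 0.67 points without windows over 100 libraries and fell short of the threshold. The cis difference passed in every alternative run (0.0192 to 0.0309) other than against windows at 60 to 67 Mb (0.0145), and leaving out each chromosome gave 0.0223 to 0.0309.

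The linkage differences between chromosomes passed no alternative based on D′ or on the ratio of co-segregation to its expectation, and leaving out each chromosome gave 0.00576 to 0.0167 against comparison windows and 0.00869 to 0.0131 against pairs with comparison windows. With other comparison windows the differences in D′ moved to 0.00243 and 0.00131 at 20 to 27 Mb and to 0.0176 and 0.0143 at 60 to 67 Mb. With the coverage-adjusted correlation the values were 0.0063 and 0.00575, and both passed. With that measure they were 0.00618 and 0.00563 over windows positive in 25 to 100 libraries, 0.00697 and 0.00648 over windows at least 50% unique, and 0.00488 and 0.0045 without the library of largest contribution. Without the full collection the first (0.00599) fell short and the second (0.00599) passed, and without the kit experiment neither passed (0.00383 and 0.00357). Leaving out each chromosome gave 0.00471 to 0.00801 for the first, which passed in 9 of 14 cases, and 0.00452 to 0.00756 for the second, which passed in 12 of 14. The count of blocks that differed from the members was 0 with D′ and 10 with this measure, and with this measure 3 without the kit experiment and 7 without the full collection. The cause of these changes was not tested.

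Leaving out single libraries of arms with 3 to 5 gave 0 adjusted calls in all 17 cases, which says nothing about stability, since no contrast of the reduced arm could pass at its size. The contrast of 23 with 25 PCR cycles then ranged from -1.43 to 6.36 points. No paired analysis was possible because the replicate numbers only name libraries in accession order and pair none of them. The number of libraries limits the precision, and absence cannot be told from too few reads in a window called 0.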
